A study of Mus musculus with 9 samples.

Results

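The genes described here make up a skeletal muscle programme outside the troponins and the sarcomeric myosins, read in adult mouse hearts. They are 33 genes chosen by name: myogenic transcription factors, genes of the neuromuscular endplate, genes of the triad and of calcium handling, and structural genes of fast and slow skeletal fibres. Each was read at its probe set with a single gene symbol and the highest mean over all 9 arrays, and all 33 of the 33 had such a probe set, out of 19935 genes measured in this way. RNA came from tissue of adult hearts, right ventricle with septum, of mice on a mixed background of C57BL/6. The 4 Ezh2-deficient mice carried the genotype Ezh2f/f;Mef2cAHF::Cre, and the 5 wild-type mice carried Ezh2f/f without Cre. In the titles, however, wild-type samples are given 1 floxed and 1 unfloxed allele, a mismatch that was not reconciled. An enhancer of Mef2c that works in embryonic progenitors of the anterior heart field drives the Cre, and the adult tissue also holds cells that never expressed it. Loss of Ezh2 and presence of the Cre transgene cannot be told apart, because every Ezh2-deficient heart and no wild-type heart carried Cre. One array was made per heart, and hearts are numbered within each genotype in the order of the samples.

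Ezh2 is the enzyme of a Polycomb complex that marks silent genes by methylating histone H3, and the complex is known to hold muscle genes silent in cells of other lineages and in muscle precursors. In skeletal muscle, myogenic factors of the basic helix-loop-helix class bind E-boxes and switch on fibre genes together with MEF2 proteins. The fibre is then excited at the endplate through the acetylcholine receptor, and the signal passes at the triad from the L-type calcium channel to the ryanodine receptor. The adult heart uses its own forms of many of these proteins and is not known to express the myogenic factors.

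In this comparison none of the skeletal muscle genes was called as changed. By limma's test over the whole table (lmFit and eBayes, two-sided, adjusted by Benjamini and Hochberg, threshold 0.05) 0 of 33 genes were higher and 0 were lower in Ezh2-deficient hearts, against a background of 0.0347% of 28815 probe sets called in either direction, 0.0243% higher and 0.0104% lower. The smallest adjusted p among them was 0.357. At an unadjusted p under 0.05 there were 3 of 33 genes, or 9.09%, close to the 10.7% of all probe sets. A higher mean in Ezh2-deficient hearts was seen for 22 genes (66.7%) and a lower one for 11, whereas 48.4% of all genes had a higher mean. The median difference was 0.034 on the log2 scale over the 33 genes and -0.0034 over all genes. The count of higher means and the median over the 33 genes depended on 2 arrays, Ezh2-deficient heart 3 and wild-type heart 4. The median difference was 0.0061 without the first, 0.016 without the second and -0.011 without both, when 12 of 33 genes had a higher mean. The median size of the difference regardless of sign was 0.058 over the 33 genes and 0.061 over all genes. The groups failed to overlap at 1 gene, Asb5, while 3.71% of all probe sets did not overlap.

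**Figure D1:**
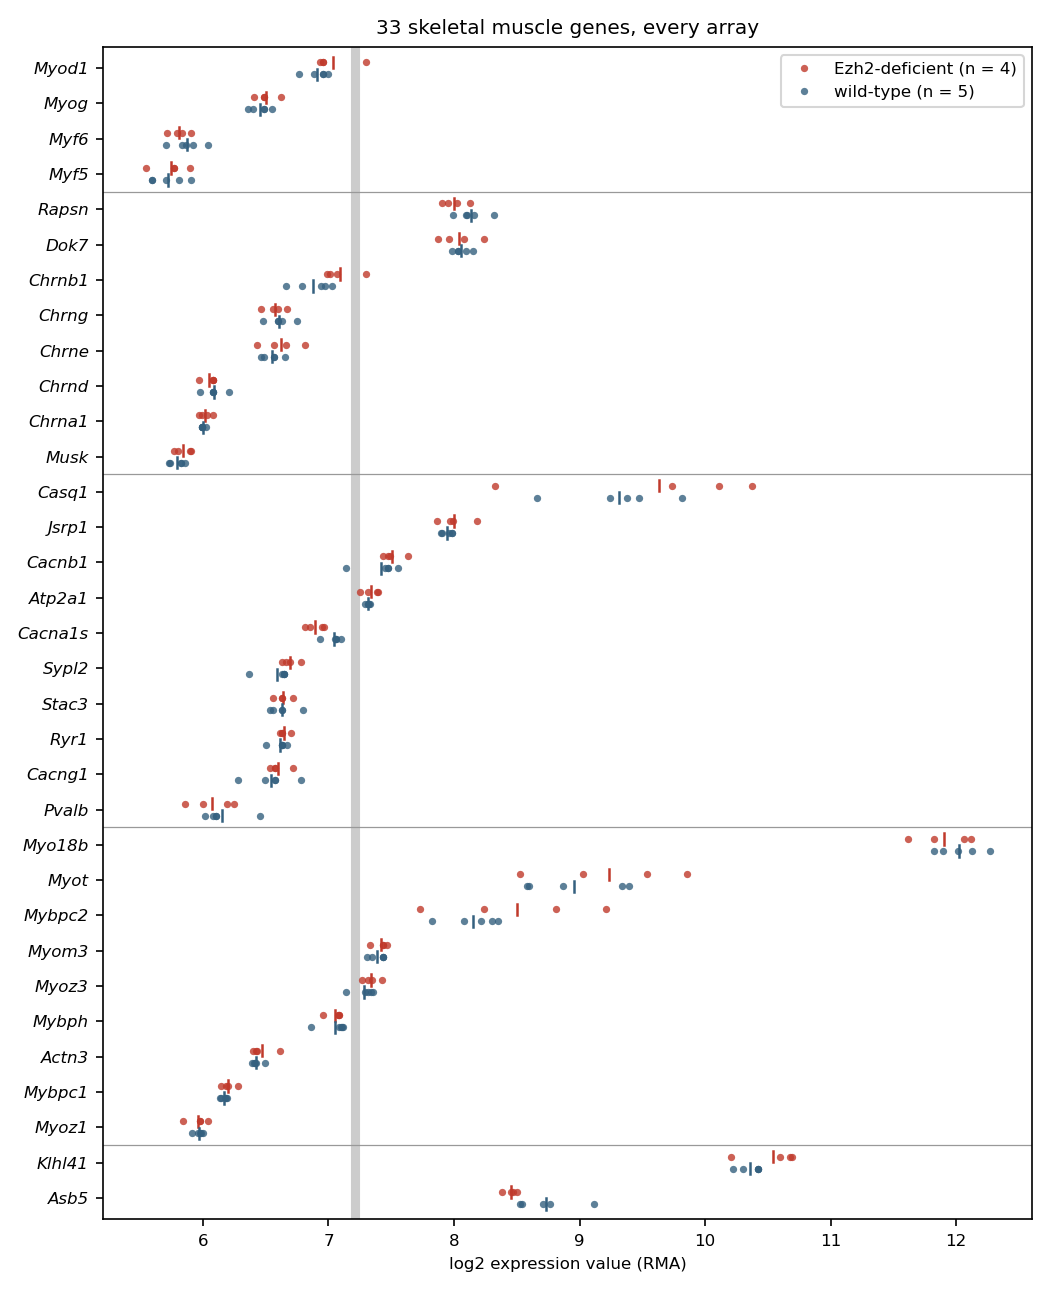
Log2 expression value (horizontal axis) of each of the 33 skeletal muscle genes in every heart; Ezh2-deficient points (red) lie above wild-type points (blue) in each row, short vertical lines are group means, and the grey band spans the medians of the 9 arrays, 7.19 to 7.25. From top to bottom the blocks are myogenic factors, endplate, triad and calcium handling, sarcomere, and the Kelch and ankyrin-repeat genes; the points of the 2 genotypes overlap in every row but that of Asb5.

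Most of these genes were read at dim probe sets. The means of 20 of them lay below the median of every array, between 5.73 and 7.05, and those of the other 13 lay between 7.31 and 11.97. Of all genes, 45.8% lay below every array median. The table has no detection call, and brightness also depends on the probes, so a dim value was not taken as absence. A difference between dim values may understate the change in RNA. In these tissue samples fewer cells of a type and less RNA per cell cannot be told apart.

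The 4 myogenic factors all had means below every array median. Of them 3 had a higher mean in Ezh2-deficient hearts, with a median difference of 0.032 that was -0.012 without Ezh2-deficient heart 3 and 0.0089 without wild-type heart 4. Without both hearts 0 of the 4 had a higher mean. Myod1, which commits cells to the skeletal lineage, read 6.954, 6.936, 7.303 and 6.954 in Ezh2-deficient hearts 1 to 4 and 6.887, 6.999, 6.954, 6.765 and 6.954 in wild-type hearts 1 to 5. The groups overlapped, and only Ezh2-deficient heart 3 lay above all wild-type hearts. The difference was 0.12 (SE 0.083, limma adjusted p = 0.628), with a 95% interval of -0.061 to 0.31. Myog, which drives differentiation, differed by 0.043 (SE 0.057). Myf5, which acts early in the lineage, differed by 0.022 (SE 0.086), and Myf6, which acts in differentiating fibres, by -0.058 (SE 0.069). Myf5 and Myf6 are neighbours on chromosome 10. The interval of Myod1 reached the highest value of the 4 factors, 1.24-fold, so a larger rise than that in the array value lay outside each single interval. The difference of Myod1 was 0.036 without Ezh2-deficient heart 3 and -0.0005 without wild-type heart 4 as well.

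The 8 endplate genes had 4 higher and 4 lower means, with a median difference of -0.0011 and of -0.0053 to 0.017 with 1 heart left out. Chrnb1, the beta subunit of the muscle acetylcholine receptor, read 7.30, 6.99, 7.01 and 7.07 in Ezh2-deficient hearts and 6.97, 7.03, 6.94, 6.67 and 6.79 in wild-type hearts. Ezh2-deficient hearts 1 and 4 lay above all wild-type hearts and the other 2 did not. Its difference of 0.21 (SE 0.089, unadjusted p = 0.0388, limma adjusted p = 0.433) had the smallest p of the endplate list. It was 0.11 when wild-type hearts 4 and 5, its lowest, were left out together. The other subunits differed by less. Chrna1, the agonist-binding alpha subunit, differed by 0.019 (SE 0.038), and the delta subunit Chrnd by -0.033 (SE 0.053). Chrng, the fetal subunit, differed by -0.038 (SE 0.062) and Chrne, which replaces it in adult muscle, by 0.072 (SE 0.076). Chrnd and Chrng are neighbours on chromosome 1.

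The genes that build the endplate were likewise not called. Musk, the receptor tyrosine kinase that answers nerve-derived agrin, differed by 0.050 (SE 0.048), and Dok7, its cytoplasmic activator, by -0.021 (SE 0.073). Rapsn, which clusters the receptors, averaged 8.00 ± 0.10 in Ezh2-deficient hearts (SD, n = 4) and 8.14 ± 0.12 in wild-type hearts (SD, n = 5). Its difference of -0.13 (SE 0.071, limma adjusted p = 0.54) was the lowest of the list. All 8 upper limits of the 95% intervals lay at or below 1.33-fold.

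The 10 genes of the triad and of calcium handling had 8 higher means and a median difference of 0.046, which was 0.010 without Ezh2-deficient heart 3 and 0.014 without wild-type heart 4. Without both hearts 5 of 10 had a higher mean and the median was -0.0045. Cacna1s, the pore subunit and voltage sensor of the skeletal L-type channel, read 6.82, 6.86, 6.97 and 6.95 in Ezh2-deficient hearts and 7.06, 7.05, 7.10, 6.93 and 7.06 in wild-type hearts. Apart from wild-type heart 4, every wild-type heart lay above every Ezh2-deficient heart. The difference was -0.14 (SE 0.051, unadjusted p = 0.018), the smallest p of all 33 genes, and was not called (limma adjusted p = 0.357). The other channel subunits Cacng1 and Cacnb1 differed by 0.060 (SE 0.090) and 0.091 (SE 0.083). Ryr1, the skeletal calcium release channel, differed by 0.034 (SE 0.045), and 5 of its 9 arrays carried the same value. Stac3, an adaptor needed for coupling the L-type channel to Ryr1, differed by 0.0041 (SE 0.060).

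Among the remaining triad genes, Jsrp1, a protein of the junctional membrane, differed by 0.059 (SE 0.061), and Sypl2, the triad protein mitsugumin 29, by 0.10 (SE 0.067). Atp2a1, the calcium pump of fast fibres, averaged 7.34 ± 0.068 in Ezh2-deficient and 7.32 ± 0.015 in wild-type hearts (SD, n = 4 and 5) and differed by 0.022 (SE 0.042). Pvalb, the calcium buffer of fast fibres, differed by -0.078 (SE 0.10). Casq1, the calcium store of the sarcoplasmic reticulum, had the widest spread of the list and is described with the other variable genes below.

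The 9 sarcomere genes had 6 higher and 3 lower means, with a median difference of 0.034, which was 0.020 without Ezh2-deficient heart 3, 0.016 without wild-type heart 4 and -0.014 without both. Actn3, the alpha-actinin of fast fibres, differed by 0.041 (SE 0.053). Mybpc1, the slow myosin-binding protein C, differed by 0.034 (SE 0.040), and the related Mybph by -0.0049 (SE 0.061). The Z-disc genes Myoz1 and Myoz3, which bind calcineurin, differed by -0.010 (SE 0.047) and 0.053 (SE 0.056), and Myom3, of the M-band, by 0.026 (SE 0.047). Myo18b, an unconventional myosin needed for sarcomere assembly in heart and skeletal muscle, was the only one of the 33 genes with more than 1 probe set. Its chosen probe set differed by -0.12 (SE 0.12). Lower means in the Ezh2-deficient group were found at 19 of its 20 probe sets, with differences between -0.20 and 0.043, and by limma 0 were called, with 0 at an unadjusted p under 0.05. The probe sets share the same hearts and are not independent.

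Asb5, an ankyrin-repeat protein of the SOCS box family, read 8.46, 8.38, 8.47 and 8.50 in Ezh2-deficient hearts and 8.54, 8.76, 8.53, 8.71 and 9.12 in wild-type hearts. It was the only one of the 33 genes at which all Ezh2-deficient hearts lay on one side of all wild-type hearts, here below them, as at 1.91% of all probe sets. The difference of -0.28 (SE 0.11, unadjusted p = 0.03, limma adjusted p = 0.405) was not called. The gap between the groups was narrow, with 8.50 in the highest Ezh2-deficient heart and 8.53 in the lowest wild-type heart. Without wild-type heart 5, the highest, the difference was -0.18.

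**Figure D2:**
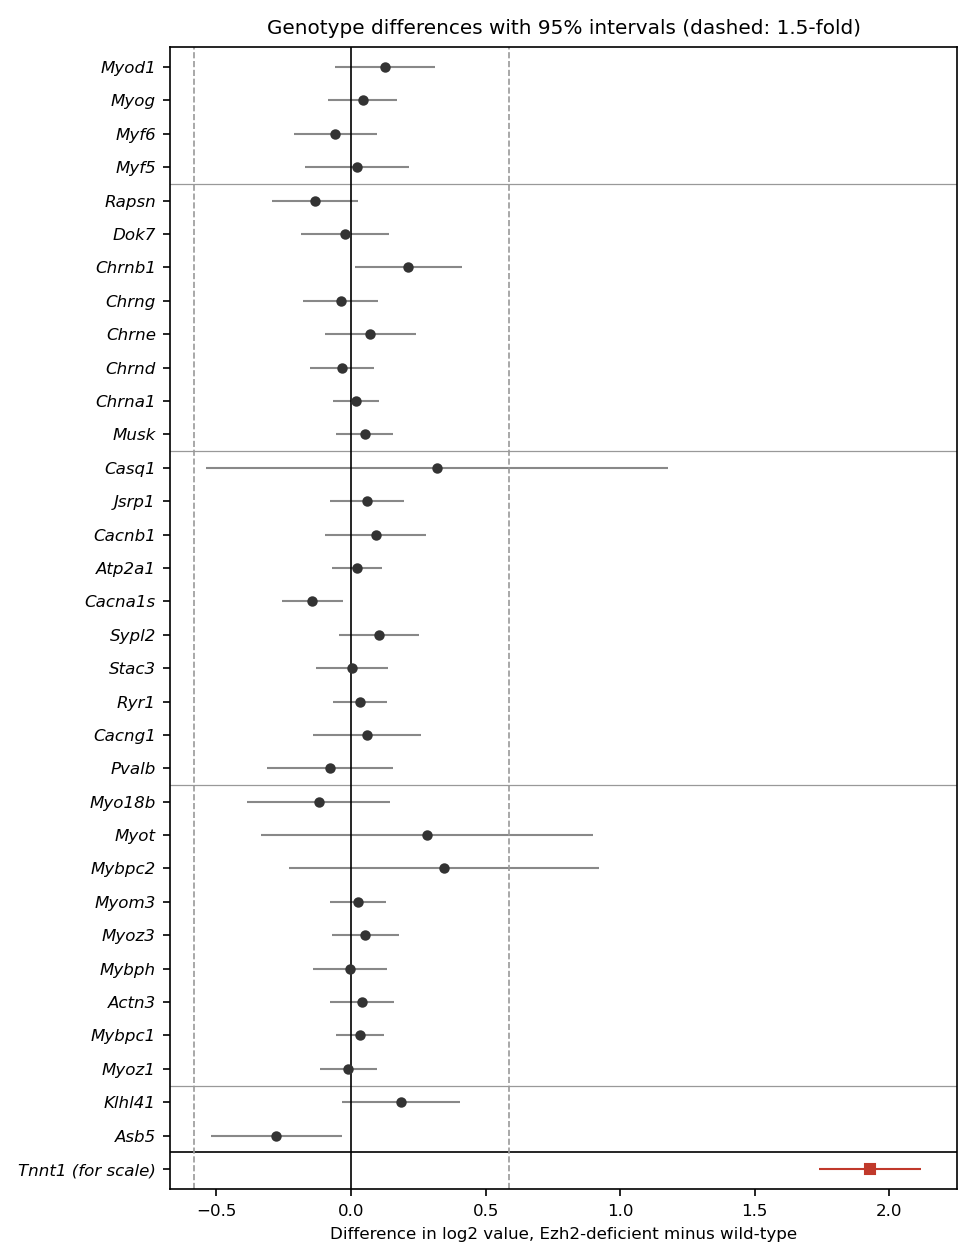
Difference in log2 value, Ezh2-deficient minus wild-type, with its 95% interval from limma for each of the 33 skeletal muscle genes in the same blocks as above and, in red, for Tnnt1, the slow skeletal troponin T. Dashed lines mark 1.5-fold in either direction; Casq1, Mybpc2 and Myot are the 3 genes whose intervals cross the upper line, and Tnnt1 lies at 1.93.

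The intervals set limits on the size of change in these array values. Taken singly, for 30 of 33 genes the 95% interval lay below a 1.5-fold rise, and for all 33 it lay above a 1.5-fold fall. The exceptions were Casq1, Mybpc2 and Myot, with upper limits of 2.26-fold, 1.90-fold and 1.87-fold. For these 3 genes a rise of 1.5-fold lay within the interval.

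Casq1, Mybpc2 and Myot stood apart by their spread among Ezh2-deficient hearts, and with Klhl41 they were chosen for description heart by heart after their values were seen. Casq1 read 10.11, 9.73, 8.33 and 10.37 in Ezh2-deficient hearts and 9.82, 9.38, 9.25, 8.66 and 9.47 in wild-type hearts. Ezh2-deficient hearts 1 and 4 lay above every wild-type heart and heart 3 lay below every one. Its difference was 0.32 (SE 0.38, limma adjusted p = 0.802). Mybpc2, the fast myosin-binding protein C, read 9.21, 8.24, 7.73 and 8.82 in Ezh2-deficient hearts and 8.35, 8.30, 8.22, 8.08 and 7.83 in wild-type hearts. Hearts 1 and 4 were again the highest of all and heart 3 the lowest of all, and the difference was 0.35 (SE 0.26, limma adjusted p = 0.663). Myot, the Z-disc protein myotilin, read 9.86, 9.03, 8.53 and 9.54 in Ezh2-deficient hearts and 8.87, 8.58, 8.60, 9.34 and 9.40 in wild-type hearts. Hearts 1 and 4 were once more the highest of all and heart 3 the lowest of all, and the difference was 0.28 (SE 0.28, limma adjusted p = 0.747).

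Klhl41, a Kelch protein that stabilises nebulin, showed a smaller form of this pattern. It read 10.67, 10.69, 10.21 and 10.60 in Ezh2-deficient hearts and 10.22, 10.43, 10.42, 10.30 and 10.42 in wild-type hearts. Hearts 1, 2 and 4 lay above all wild-type hearts and heart 3 lay below all of them. The difference was 0.18 (SE 0.098, limma adjusted p = 0.541). The SD among Ezh2-deficient hearts was 0.91 for Casq1, 0.65 for Mybpc2 and 0.59 for Myot, larger than that of 99.9%, 99.8% and 99.7% of all genes. Among wild-type hearts the SD was 0.42, 0.21 and 0.39 for the same genes, larger than that of 99.0%, 90.7% and 98.7% of all genes. Whether the spread itself differed between genotypes was not tested.

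**Figure D3:**
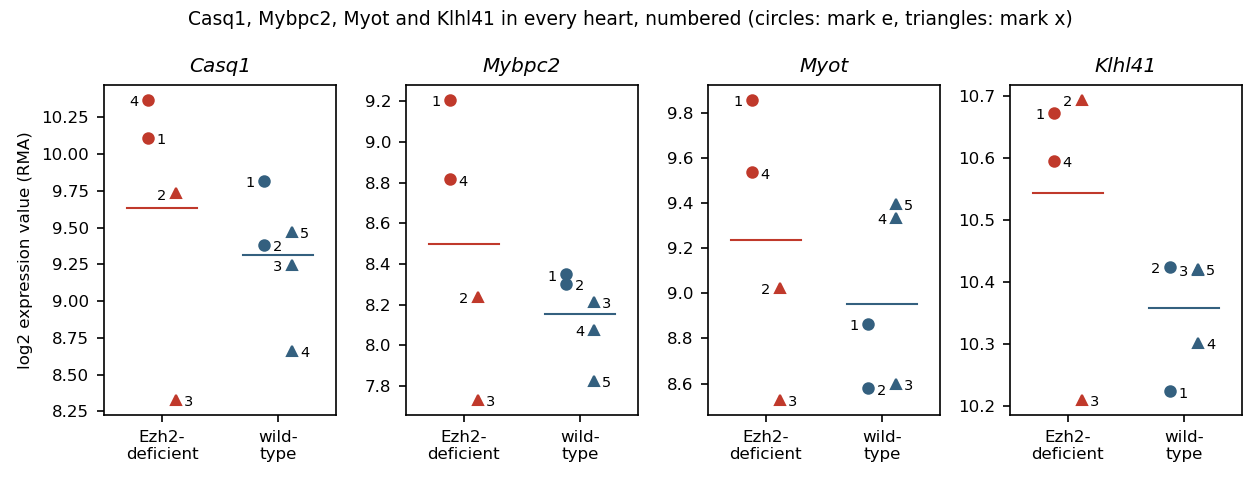
Log2 expression value (vertical axis, with its own range for each gene) of Casq1, Mybpc2, Myot and Klhl41 in every heart; numbers are hearts within a genotype, circles carry the title mark e and triangles x, with or without a prime, and horizontal lines are group means. Ezh2-deficient heart 3 is the lowest point for all 4 genes, and Ezh2-deficient hearts 1 and 4 are the 2 highest for Casq1, Mybpc2 and Myot.

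The size of these differences depended on single hearts, and none was called in any setting. Without Ezh2-deficient heart 3 the differences were 0.75 for Casq1 (SE 0.24, limma adjusted p = 0.399), 0.60 for Mybpc2 (SE 0.20, adjusted p = 0.437), 0.52 for Myot (SE 0.25, adjusted p = 0.573) and 0.30 for Klhl41 (SE 0.059, adjusted p = 0.174). Without Ezh2-deficient heart 1 they were 0.16 for Casq1, 0.11 for Mybpc2 and 0.075 for Myot, and without heart 4 they were 0.074, 0.24 and 0.18 for the same genes. Leaving out wild-type heart 4 gave 0.16 for Casq1, and leaving out wild-type heart 2 gave 0.19 for Myot.

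Sample titles carry a mark whose meaning the labels do not give. It is e for Ezh2-deficient hearts 1 and 4 and wild-type hearts 1 and 2, an x with a prime for Ezh2-deficient heart 2 and wild-type hearts 3 and 5, and an x without a prime for Ezh2-deficient heart 3 and wild-type heart 4. The last 2 are also the arrays with the highest and the lowest median, and each mark holds both genotypes. Under the mark e Casq1, Mybpc2 and Myot differed by 0.64, 0.69 and 0.98 (2 hearts against 2). Under the primed x they differed by 0.37, 0.22 and 0.028 (1 against 2), and under the unprimed x by -0.33, -0.34 and -0.81 (1 against 1, no test). With the 3 marks as a block, an alternative added after seeing the data, the differences were 0.33 for Casq1 (SE 0.17, limma adjusted p = 0.467), 0.30 for Mybpc2 (SE 0.17, adjusted p = 0.532) and 0.27 for Myot (SE 0.30, adjusted p = 0.753). Over the 33 genes the median difference was then 0.035, with 0 called. Limma's test of whether the genotype difference itself differed between e and both x marks pooled was also added. It gave an unadjusted p = 0.238 for Casq1, 0.0223 for Mybpc2 and 0.00821 for Myot. After adjustment over all probe sets 0 of 33 genes passed (adjusted p = 0.732 for Myot), and 2 of 33 had an unadjusted p under 0.05, against 6.12% of all probe sets.

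Promoters from RefSeq are shown for Casq1, Mybpc2 and Klhl41, chosen after their values were seen. Ezh2-deficient heart 3 was the lowest of all hearts for each of them. That also held for Myot, Myo18b, Dok7 and Chrnd, whose promoters are not shown, so the shown genes are not a distinct group. In wild-type hearts Casq1, Mybpc2 and Klhl41 did not run in one order: heart 1 was the highest for Casq1 and the lowest for Klhl41. Each run is the 250 bases before the annotated start, 5′ to 3′ on the strand of the gene. Capitals mark the E-box letters CANNTG, bound by myogenic factors, and the letters CTA followed after any 4 bases by TAG, a core of the MEF2 site. Both motifs read the same on either strand, and overlapping matches were each counted.
Casq1 (GRCm38.p6, chr1:172219896-172220145, minus strand): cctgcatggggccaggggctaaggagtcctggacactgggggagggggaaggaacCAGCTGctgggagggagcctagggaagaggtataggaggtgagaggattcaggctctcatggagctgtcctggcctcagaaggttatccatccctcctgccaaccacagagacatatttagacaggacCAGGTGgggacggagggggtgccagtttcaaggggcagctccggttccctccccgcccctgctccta
Mybpc2 (GRCm38.p6, chr7:44524670-44524919, minus strand): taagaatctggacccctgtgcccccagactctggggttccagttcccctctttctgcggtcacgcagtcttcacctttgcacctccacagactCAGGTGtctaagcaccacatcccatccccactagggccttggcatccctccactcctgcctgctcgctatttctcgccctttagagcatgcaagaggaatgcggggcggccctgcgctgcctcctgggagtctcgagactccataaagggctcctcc
Klhl41 (GRCm38.p6, chr2:69669870-69670119, plus strand): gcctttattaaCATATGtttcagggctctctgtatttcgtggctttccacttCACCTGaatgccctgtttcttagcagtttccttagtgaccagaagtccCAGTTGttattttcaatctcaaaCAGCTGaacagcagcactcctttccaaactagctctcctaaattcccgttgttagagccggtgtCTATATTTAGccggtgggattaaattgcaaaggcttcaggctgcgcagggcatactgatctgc
The E-box letters occurred 2 times in the Casq1 run, once in that of Mybpc2 and 4 times in that of Klhl41, and the MEF2 letters only in that of Klhl41. Promoters were available for 21 of the 33 genes, 26 in all. Of these 26 promoters 20 (76.9%) held CANNTG, against 66.2% of all 32851 promoters, and 2 (7.69%) held the MEF2 letters, against 3.20%. The second of those 2 belonged to Myf5. CpG dinucleotides reached an observed over expected ratio of at least 0.6, a usual mark of CpG islands, in 7 of 26 promoters (26.9%), against 34.0% of all. These letter matches are descriptions and not binding sites.

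Some arrays read high or low for many of the dim genes at once. Of the 20 dim skeletal muscle genes, Ezh2-deficient heart 3 was the highest of all 9 hearts, ties included, at 7 and wild-type heart 4 the lowest at 8. Over all 9121 genes below every array median the same hearts were highest at 23.3% and lowest at 26.6%. These arrays also had the highest and the lowest median of the 9, 7.25 for Ezh2-deficient heart 3 and 7.19 for wild-type heart 4. The mean of 3 Y-linked genes was 4.84 to 5.51 in Ezh2-deficient hearts 1 and 3 and 5.47 in wild-type heart 4, and 8.64 to 9.38 in the other hearts. By this mean 2 Ezh2-deficient hearts and 1 wild-type heart read as female. Among hearts marked x these are the hearts without a prime, so sex and the prime cannot be told apart there. With the Y-linked mean as a covariate the median difference over the 33 genes was 0.031. With arrays centred on their medians the median difference over the 33 genes was 0.019. Of the 13 brighter genes, 6 were lowest of all in Ezh2-deficient heart 3, a position that heart held at 26.9% of all brighter genes. Wild-type heart 4 was lowest at 3 of the 13, against 13.1% of all brighter genes. Its values minus the median of each gene had a median of -0.12 over the 13, against -0.076 in Ezh2-deficient heart 3. The part of these array-wide shifts in the values of the genes was not tested.

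**Figure D4:**
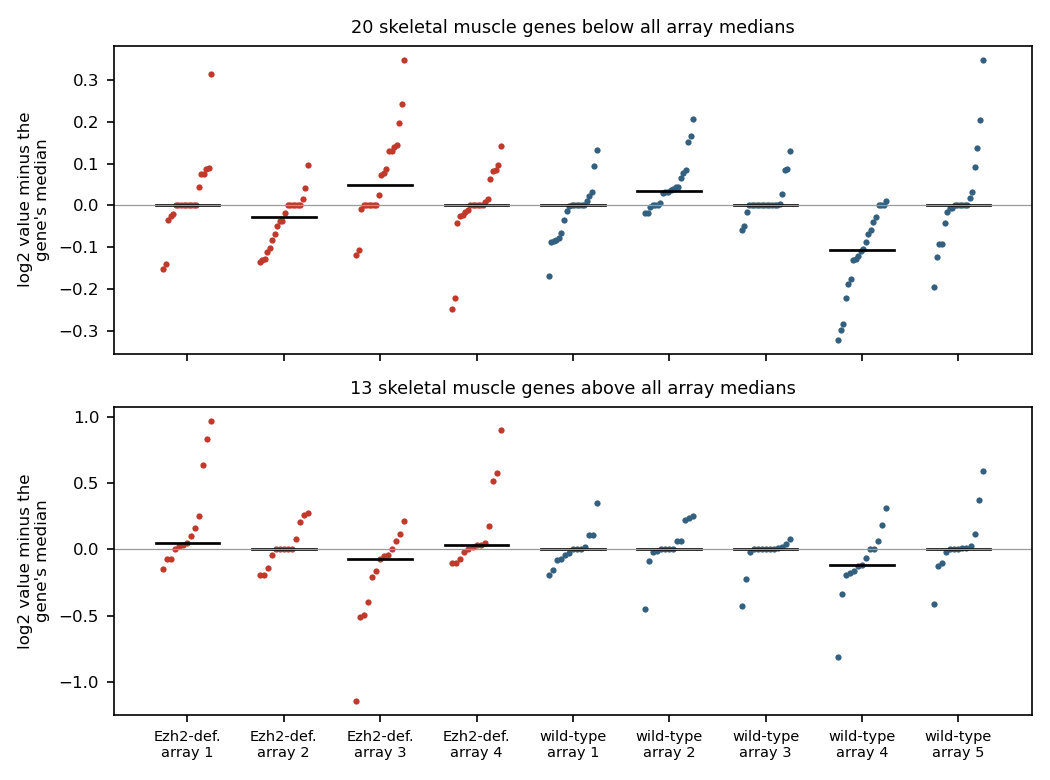
Log2 value of each skeletal muscle gene in a heart minus its median over the 9 hearts (vertical axis), for the 20 genes below (upper panel) and the 13 genes above (lower panel) all array medians; the panels have different ranges, points are genes and black lines medians over genes. In the upper panel wild-type heart 4 lies lowest, with a median of -0.11, and Ezh2-deficient heart 3 highest, with 0.049. In the lower panel wild-type heart 4 also lies lowest, with -0.12.

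Markers of skeletal fibres and of other cells were read beside these results. The 8 sarcomeric markers of skeletal fibres had a list mean of 6.78 to 6.82 in Ezh2-deficient hearts and 6.71 to 6.83 in wild-type hearts. Of the 8 markers 6 lay below every array median, among them the fast myosin genes Myh1, Myh2 and Myh4. By limma 0 of 8 were called, with 0 at an unadjusted p under 0.05. Markers of satellite cells, the stem cells of skeletal muscle, had a list mean of 6.58 to 6.80 in Ezh2-deficient and 6.54 to 6.61 in wild-type hearts. The 9 cardiomyocyte markers had a list mean of 13.5 to 13.7 in Ezh2-deficient hearts, lowest in heart 3 at 13.47, and 13.5 to 13.6 in wild-type hearts. In the Ezh2-deficient group 7 of these 9 markers had lower means, with a median difference of -0.061, while Nppa, the atrial natriuretic peptide that stressed ventricles make, differed by 0.86 and Tnni3, the heart troponin I, by -0.17. By limma 0 of 9 were called and 2 had an unadjusted p under 0.05. Fibroblast markers were at 10.9 to 11.3 in Ezh2-deficient hearts, highest in heart 3 at 11.26, and 10.2 to 10.7 in wild-type hearts. All 7 fibroblast markers had a higher mean in Ezh2-deficient hearts, and 0 were called by limma. In each of these alternative fits 1 was called: with array weights, with dim probe sets left out and without wild-type heart 1. An unadjusted p under 0.05 was found for 4 of the 7, against 10.7% of all probe sets. Leukocyte markers were at 7.93 to 8.46, again highest in heart 3, and at 7.47 to 8.04 in wild-type hearts. Endothelial markers were at 10.60 to 10.69 in Ezh2-deficient and 9.99 to 10.55 in wild-type hearts. Like the fibroblast means these ranges did not overlap, but no share over all genes was computed for list means. The median difference of the endothelial markers was 0.27, or 0.014 without wild-type hearts 4 and 5. Within the mark e 3 of 5 endothelial markers and 6 of 7 fibroblast markers had a higher mean. Smooth muscle markers were at 8.75 to 9.33, lowest in heart 3, and 8.55 to 8.99 in wild-type hearts. The 5 measured markers of nerve and Schwann cells were at 6.52 to 6.71 in Ezh2-deficient and 6.40 to 6.60 in wild-type hearts. The part of cell makeup in the low values of Casq1, Mybpc2, Myot and Klhl41 in heart 3 was not tested.

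The targeted gene did not check the labels. Ezh2 averaged 8.88 ± 0.11 in hearts labelled Ezh2-deficient (SD, n = 4) and 8.73 ± 0.12 in wild-type hearts (SD, n = 5), a difference of 0.15 (SE 0.071, limma adjusted p = 0.485). The table does not show where in the transcript the probes lie.

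Heart counterparts of the skeletal genes were compared next. Of 14 genes that encode the heart forms or their partners 0 passed limma's test. An unadjusted p under 0.05 was found for 2 of them, against 10.7% of all probe sets. All 14 means were lower in the Ezh2-deficient group, with a median difference of -0.045. The median was -0.089 without Ezh2-deficient heart 1, -0.034 without Ezh2-deficient heart 3 and -0.011 within the mark e. With a further quantile normalization 13 of 14 were lower, and without Ezh2-deficient heart 3, or within the mark e, there were 10 of 14. Casq2, the heart calsequestrin, differed by -0.11 (SE 0.046, limma adjusted p = 0.426), and Hrc, a calcium-binding protein of the sarcoplasmic reticulum, by -0.23 (SE 0.097, adjusted p = 0.43). Tnnt2, the heart troponin T, differed by -0.086 (SE 0.039, adjusted p = 0.476). For the channel Cacna1c the difference was -0.24 (SE 0.12), beside -0.14 for Cacna1s, and for Ryr2 it was -0.13 (SE 0.11), beside 0.034 for Ryr1. The pump Atp2a2 differed by -0.035 (SE 0.037), beside 0.022 for Atp2a1. The skeletal and heart differences were not tested against each other.

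**Figure D5:**
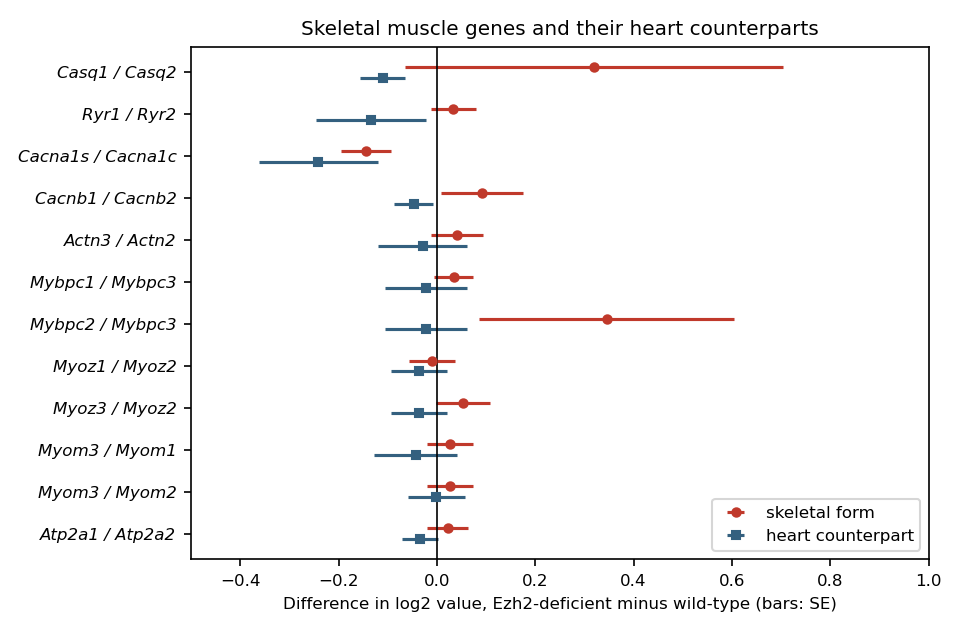
Difference in log2 value, Ezh2-deficient minus wild-type, with its SE, for skeletal forms (red circles) and their heart counterparts (blue squares). The bars of Casq1 and Mybpc2 are the longest, with SE 0.38 and 0.26; Mybpc3, Myoz2 and Myom3 each appear in 2 rows.

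Other genes of the programme gave the setting. Among 15 skeletal troponins, myosins, actin and tropomyosins 1 was called, Tnnt1, which was higher in Ezh2-deficient hearts by 1.93 on the log2 scale (limma adjusted p = 2.33e-05). Its call held in 20 of 22 alternative fits. It was lost within the mark e alone (difference 2.06, 2 hearts against 2) and within both x marks alone (1.81, 2 against 3), and the difference was between 1.81 and 2.06 in all fits. It read 10.26, 10.15, 10.10 and 10.40 in Ezh2-deficient hearts and 8.37, 8.17, 8.50, 8.15 and 8.29 in wild-type hearts. Unlike Casq1, it read above every wild-type heart in Ezh2-deficient heart 3. The median difference of that list was 0.046, with 0.025 without wild-type heart 4 and 0.084 without Ezh2-deficient heart 4. Of the 15 genes 3 had an unadjusted p under 0.05, against 10.7% of all probe sets. Acta1, the skeletal alpha-actin that fetal and stressed hearts also make, read 13.75, 13.26, 12.39 and 13.27 in Ezh2-deficient hearts and 11.91, 11.90, 12.66, 11.57 and 11.64 in wild-type hearts. Its lowest Ezh2-deficient heart was also heart 3, within the wild-type range.

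In a list of genes that act before or with the myogenic factors, 1 of 27 measured genes, of 30 listed, was called. The list holds partners such as the MEF2 genes, Tcf3 and Tcf12. It also holds the cell fusion genes Mymk and Mymx, which are not regulators of these factors. Eya1, a coactivator of homeodomain proteins, was higher in Ezh2-deficient hearts by 0.57 (SE 0.063, limma adjusted p = 0.025), reading 6.92, 7.04, 6.86 and 6.90 against 6.29, 6.23, 6.43, 6.35 and 6.49 in wild-type hearts. Its probe set was dim, with a mean of 6.61 over all hearts, below every array median, and was dropped when dim probe sets were left out. Of 21 alternative fits that kept its probe set Eya1 passed in 10, with an adjusted p between 0.0048 and 0.651 and a difference between 0.53 and 0.65. At an unadjusted p under 0.05 there were 7 of the 27, a larger share than the 10.7% of all probe sets. The median difference was 0.057, which was 0.018 without Ezh2-deficient heart 3, 0.037 without wild-type heart 5 and -0.0055 within the mark e.

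Further genes of the triad and endplate were not called. In each list of this paragraph the share with an unadjusted p under 0.05 was above the 10.7% of all probe sets. The lists were chosen with earlier results known. Of 18 other triad and membrane excitation genes 0 passed limma's test and 4 had an unadjusted p under 0.05, with a median difference of -0.0083, or -0.042 to 0.039 with 1 heart left out. Clcn1, the chloride channel of the skeletal fibre membrane, differed by -0.44 (SE 0.097, adjusted p = 0.149), Bin1, which shapes transverse tubules, by 0.25 (SE 0.097), and Hrc as given above. Of 20 other endplate genes 0 passed and 6 had an unadjusted p under 0.05, with a median of 0.021, or -0.0019 to 0.079 with 1 heart left out. Ncam1, an adhesion molecule of immature and denervated fibres, differed by 0.57 (SE 0.082, adjusted p = 0.0573), Erbb4, a neuregulin receptor, by -0.42 (SE 0.094) and its ligand Nrg1 by 0.38 (SE 0.12). Ncam1 passed in 3 of 22 alternative fits, with an adjusted p of 0.0385 to 0.651 and a difference of 0.44 to 0.67 over all of them. Of 34 other genes expressed in skeletal fibres 0 passed and 8 had an unadjusted p under 0.05, with a median of -0.083 and 9 of 34 means higher. Without Ezh2-deficient heart 3 the median was -0.029, with 15 of 34 higher, and within the mark e it was -0.012. Itgb1bp2, the muscle chaperone melusin, differed by -0.34 (SE 0.069, adjusted p = 0.129), Fbp2, the muscle fructose bisphosphatase, by -0.69 (SE 0.18) and Eno3, the muscle enolase, by -0.18 (SE 0.052). Many genes of that list are also expressed in the heart, and only 5 of the 34 lay below every array median. Actn2 was counted both there and among the heart counterparts, so the list does not read skeletal fibres alone.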

How the data were processed

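RNA from 9 hearts was measured on 9 Affymetrix arrays, one per heart. The deposited table holds 1 log2 value per probe set and array for 28815 probe sets. Per the submitters' processing notes it was made with Affymetrix Power Tools and RMA, with versions not given in the sources used here; the log2 scale was read from the method's name and from the range of the values. RMA subtracts background, quantile-normalizes arrays and summarises probes, which reduces shifts common to most genes of an array. Some remained in this table, where array medians ran from 7.19 to 7.25.

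Gene names came from the platform annotation of the probe sets: 21780 had 1 symbol, 1605 several and 5430 none, and only those with 1 symbol were named. Of their gene identifiers 21689 were found in the RefSeq gene table and 0 symbols changed. Each gene was read at its probe set with the highest mean.

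Genotypes were compared with limma 3.58.1 in R 4.3.3 (lmFit, eBayes, two-sided) on all 9 arrays without covariates, with Benjamini-Hochberg adjustment over all 28815 probe sets and a threshold of 0.05. The procedure was tested on simulated data. Intervals are limma's 95% intervals for single genes. The number of arrays limits the precision. The labels speak of separate mice in each group, and samples were taken as such. Heart numbers follow sample order and pair nothing.

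The genes, lists and tests were chosen with earlier results of these data known. Values in every heart were to be given for genes past the threshold or with an unadjusted p under 0.05, and for other lists the genes past the threshold or the 3 with the smallest p. Genes described outside this rule were chosen after their values were seen: Casq1, Mybpc2, Myot, Klhl41, Myod1, Rapsn, Acta1 and the heart forms set beside Cacna1s, Ryr1 and Atp2a1. Promoters came from a RefSeq table on GRCm38.p6.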

Additional observations from a re-analysis of the deposited data

Results flagged for a closer look

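In 15 of 68 groups tested, the genotypes of 33 skeletal muscle genes and Ezh2, 1 heart lay far from the others of its group by Dixon's criterion at its 95% level. Chance flags about 1 in 20 groups when values are normal and untied. Here it was 22.1%, but the genes share the same hearts, and at 23 of the 33 genes at least 2 hearts had the same value. The share flagged over all genes was not computed, so 22.1% was not read as an excess.

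Ezh2-deficient heart 3 lay apart at 4 genes. It was high for Myod1 at 7.30, with the next heart at 6.95, for Ryr1 at 6.70, with the next at 6.63, and for Actn3 at 6.62, with the next at 6.43. For Chrnd it was low at 5.97, while the other 3 Ezh2-deficient hearts shared the value 6.08. Ezh2-deficient heart 2 was low for Mybph at 6.95, with the next at 7.07.

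Wild-type heart 4 was low at 6 genes. It read 6.50 for Ryr1, with the nearest heart at 6.63, and 6.93 for Cacna1s, with the nearest at 7.05. It read 6.86 for Mybph, with the nearest at 7.08, and 7.14 for Myoz3, with the nearest at 7.29. For Sypl2 it read 6.37, with the nearest at 6.63, and for Cacnb1 7.14, with the nearest at 7.45. The other wild-type hearts gave single cases. Heart 2 was high for Actn3 at 6.50, with the next at 6.42, and heart 5 was high for Pvalb at 6.45, with the next at 6.10. Heart 1 was high for Chrna1 at 6.03, while the other 4 all read 5.99, and low for Atp2a1 at 7.29, with the next at 7.32. The causes were not tested.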

How the results depend on the processing

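In all 22 alternative fits 0 of the 33 genes passed limma's test, and the smallest adjusted p was 0.149. In 2 of these fits, chosen after seeing the data, the full title mark was a block or both hearts with an unprimed x, Ezh2-deficient heart 3 and wild-type heart 4, were left out. In the second of them the median difference was -0.011 and 12 of 33 genes had a higher mean. In the other fits the median lay between 0.0035 (array weights) and 0.053 (dim probe sets left out), and between 17 and 24 of 33 genes had a higher mean, or 9 of 13 with dim probe sets left out. The number of all probe sets called, 10 as reported, was 3 with the Y-linked mean as a covariate, 37 with array weights, 17 with arrays centred on their medians, 17 with dim probe sets left out, 17 with the title letter as a block, 27 with the full title mark as a block, 3 without both unprimed x hearts, 0 within letter e, 0 within letter x, 5 without wild-type hearts 4 and 5 and 3 to 15 when 1 heart was left out. The causes were not tested; fits within a letter or without hearts hold fewer hearts.

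Of 674 single-gene fits 614 kept their direction, and 60 in 21 genes changed sign. With the Y-linked mean as a covariate Dok7 was 0.0025, Mybph 0.014 and Stac3 -0.0047. With array weights Jsrp1 was -0.0022, Myom3 -0.0022, Chrna1 -0.0021, Dok7 0.0042, Myf5 -0.029 and Stac3 -0.0016. Stac3 was -0.011 with centred arrays, -0.0070 with the letter as a block and -0.0089 with the full mark as a block. Without both unprimed x hearts Myod1 was -0.0005, Jsrp1 -0.011, Myoz3 -0.014, Chrne -0.014, Actn3 -0.017, Ryr1 -0.013, Myog -0.014, Myom3 -0.00092, Chrna1 -0.0030, Dok7 0.028, Myf5 -0.061 and Stac3 -0.011. Within letter e Myf6 was 0.024, Actn3 -0.044, Ryr1 -0.024, Myog -0.033, Atp2a1 -0.020, Chrna1 -0.029, Myf5 -0.047, Myoz1 0.026 and Stac3 -0.038. Within letter x Mybpc2 was -0.054, Myot -0.33 and Casq1 -0.096. Without wild-type hearts 4 and 5 Pvalb was 0.0058, Myog -0.0083, Cacng1 -0.017, Dok7 0.00042 and Stac3 -0.050. With 1 heart left out Stac3 ranged between -0.024 and 0.046, Myoz1 between -0.037 and 0.028, Mybph between -0.053 and 0.027, Jsrp1 between -0.0004 and 0.10, Actn3 between -0.0091 and 0.064, Chrna1 between -0.0014 and 0.036, Dok7 between -0.088 and 0.035, Myf5 between -0.029 and 0.089 and Cacng1 between -0.0065 and 0.12. Apart from Casq1, Mybpc2 and Myot, these genes differed by at most 0.12 in size as reported.

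No paired analysis was possible because the labels give no replicate numbers shared between the genotypes. The table gives no background level or detection call, so for the 20 dim genes it cannot be told how much of a value was signal.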
